A study of Homo sapiens with 10 samples.

Results

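Transcripts of beta-catenin and of the machinery that controls its stability were followed in ESI017, an established human embryonic stem cell line of WT genotype, during activation of the canonical WNT pathway. The set held 10 genes chosen by symbol, namely CTNNB1, APC, AXIN1, GSK3A, GSK3B, CSNK1A1, BTRC, DVL1, DVL2 and DVL3, out of 35940 symbols in the count table. All 10 were found, each under 1 identifier, and all 10 passed the filter on low counts that left 15251 genes for testing. Cells grown in the defined medium mTeSR1 were exposed for 6 h or 18 h to 300 ng/ml of WNT3A, or for 6 h or 18 h to 8 µM of CHIR99021, and the comparison group stayed in mTeSR1 with no addition. CHIR99021 is a small-molecule inhibitor of the GSK3 kinases. No solvent control and no collection time for the mTeSR1 cells are given in the labels. Each group had 2 bulk RNA-seq libraries, 1 from each of 2 biological repeats, except for CHIR99021 18 h. Both CHIR99021 18 h libraries are titled as repeat 2, which is taken here as their repeat, and are numbered only to name them. The labels do not say whether those 2 libraries are separate cultures, so their SD and n are over libraries. Libraries held 1.66e+07 to 2.67e+07 estimated counts. The question put to the data was whether activation of the pathway changes the transcripts of the machinery itself.

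In cells without a WNT ligand, beta-catenin, the product of CTNNB1, is bound by the scaffolds AXIN and APC, phosphorylated first by casein kinase 1 alpha (CSNK1A1) and then by GSK3, and marked for destruction by the ubiquitin ligase adaptor beta-TrCP (BTRC). A WNT ligand engages its receptors, the Dishevelled proteins (DVL1, DVL2 and DVL3) draw AXIN to the membrane, and beta-catenin escapes destruction and acts in the nucleus with TCF and LEF factors. The control is thus known mainly at the level of protein stability and phosphorylation, which RNA-seq does not measure. AXIN2, a paralog of AXIN1, is a classical target gene of the pathway and a feedback inhibitor. In pluripotent stem cells the pathway is known for driving exit towards primitive streak and mesendoderm.

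Promoter windows of the set were read from RefSeq on GRCh38.p14, each running from 250 bases before to 50 bases after an annotated start. They were searched on both strands for CTTTGA, the core of the sequence that TCF and LEF factors bind. The 3 windows below are shown to set the gene of beta-catenin and the single match in the set beside SP5, a transcription factor gene that is a known WNT target. Letters run 5′ to 3′ on the strand of the gene, and capitals mark the searched letters (CTTTGA, or TCAAAG where the match is on the other strand).
CTNNB1 (chr3:41199255-41199554, plus strand): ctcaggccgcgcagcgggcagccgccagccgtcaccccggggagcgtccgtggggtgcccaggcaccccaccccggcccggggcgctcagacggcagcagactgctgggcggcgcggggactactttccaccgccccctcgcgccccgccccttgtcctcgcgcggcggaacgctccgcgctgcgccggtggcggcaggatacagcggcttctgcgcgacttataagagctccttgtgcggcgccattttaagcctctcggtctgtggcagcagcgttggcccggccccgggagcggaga
CSNK1A1 (chr5:149550316-149550615, minus strand): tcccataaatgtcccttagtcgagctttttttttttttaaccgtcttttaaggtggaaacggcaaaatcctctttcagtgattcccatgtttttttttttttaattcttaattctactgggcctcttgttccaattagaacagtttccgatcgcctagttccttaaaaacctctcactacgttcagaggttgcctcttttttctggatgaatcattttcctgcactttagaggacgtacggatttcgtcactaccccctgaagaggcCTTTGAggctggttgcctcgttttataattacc
SP5 (chr2:170715087-170715386, plus strand): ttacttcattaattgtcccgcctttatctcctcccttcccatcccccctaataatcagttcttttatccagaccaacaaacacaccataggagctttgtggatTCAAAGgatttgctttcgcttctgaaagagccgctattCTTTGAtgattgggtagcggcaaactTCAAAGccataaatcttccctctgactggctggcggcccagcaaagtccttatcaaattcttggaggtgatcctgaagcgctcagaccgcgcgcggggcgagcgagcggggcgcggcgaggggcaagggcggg

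The CTNNB1 window held 0 matches. For CSNK1A1, 1 of its windows held a match, at bases 268 to 273 of the window, which lies past the annotated start. For SP5 the window held 3 matches, at bases 104 to 109, 142 to 147 and 168 to 173. Over the set, 11 windows of 9 genes were in the table and 1 of them (9.09%) held a match, against 4536 of 35116 windows (12.9%) of all genes. Among the listed WNT target genes 2 of 10 windows held one, those of SP5 and DKK1. These 10 windows belong to 7 of the 13 listed targets. AXIN2, NKD1, CCND1, ZNRF3, NOTUM and LGR5 had no window and were not searched. A match is a description of letters in this window and says nothing of whether a factor binds there.

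The libraries carried the marks of their labels. AXIN2 had 250 and 184 CPM (counts relative to the TMM-scaled library size, the unit of every level here) after 6 h of WNT3A, 211 and 168 CPM after 18 h of WNT3A, 104 and 112 CPM after 6 h of CHIR99021 and 120 and 249 CPM after 18 h of CHIR99021, against 39.3 and 31.8 CPM in mTeSR1. All 8 treated libraries lay above both mTeSR1 libraries. The summed level of 9 pluripotency markers was 7640 to 9530 CPM in treated libraries and 10400 CPM in each mTeSR1 library. None of the 9 was at 0 in any of the 10 libraries. The summed level of 7 streak and mesendoderm markers was 40.1 to 457 CPM in treated libraries and 3.14 and 10 CPM in mTeSR1. Neural ectoderm markers summed to 0.0597 to 2.22 CPM, fibroblast markers to 0.921 to 4.93 CPM and trophoblast markers to 2.99 to 17.6 CPM. Transcripts encoded in mitochondria took 2.7% to 6.73% of counts. In bulk RNA, fewer cells that express a gene and less of its RNA per cell cannot be told apart. In 2 libraries, mTeSR1 library 2 and WNT3A 6 h library 2, the deviation of each gene from its mean rose with transcript length (Spearman coefficients of 0.349 and 0.448 across 15142 genes). In the other libraries the coefficient was -0.293 to -0.013. These coefficients are descriptions across genes, which are not independent replicates.

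None of the 10 genes passed the test for a change in any comparison of a treatment with mTeSR1, made with edgeR's quasi-likelihood test at a Benjamini-Hochberg adjusted p (FDR) under 0.05 over all genes tested. After 6 h of WNT3A 0 of 10 passed, where 0.433% of all genes tested did, and after 18 h of WNT3A 0 of 10 passed, against 2.1% of all genes. After 6 h of CHIR99021 0 of 10 passed, against 0.0197% of all genes, and after 18 h of CHIR99021 0 of 10 passed, against 2.78%. Over the mean of the 4 treatments 0 of 10 passed, against 2.97% of all genes. At shares this low, 0 of 10 is near what the whole table gave. At an unadjusted p under 0.05 the counts were 0, 0, 0, 3 and 0 of 10 in these comparisons taken in the same order, against 6.16%, 13.6%, 4.74%, 19.6% and 16% of all genes. DESeq2 likewise called 0 of the 10 genes in each of them. All of these comparisons share the mTeSR1 libraries, and their p-values measure only the spread between libraries. Only the fits for 18 h of CHIR99021 and for the mean of the 4 treatments held a term for the biological repeat. The shares of all genes across these fits are therefore not on one footing. With the term 751 genes passed after 18 h of WNT3A and 424 after 18 h of CHIR99021, and without it 320 and 181.

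**Figure D1:**
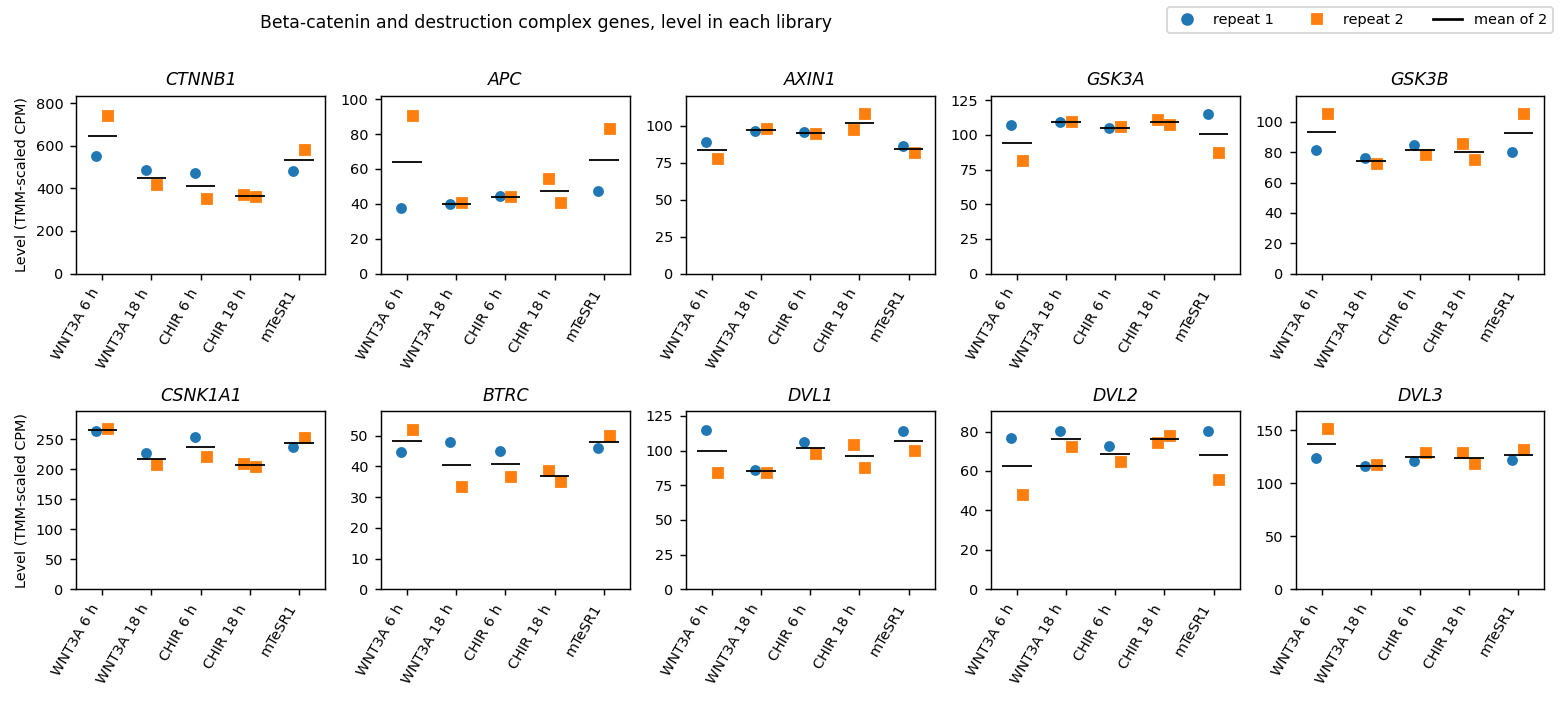
Level of each of the 10 genes in TMM-scaled CPM (vertical axis, from 0) in every library, by treatment, with mTeSR1 at the right. Circles are libraries of biological repeat 1, squares libraries of repeat 2, and the bar is the mean of the 2. CTNNB1 had the widest span in CPM, 351 to 741, and APC stood at 90.2 and 83.2 CPM in only the repeat 2 libraries of WNT3A 6 h and mTeSR1.

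Set against the length of the longest annotated transcript, the genes differed far more from each other than between treatments. Over all 10 libraries CTNNB1 averaged 98.5 CPM per kb, the highest of the set. It was followed by CSNK1A1 at 38.5, DVL1 at 30.2, GSK3A at 29.4, DVL3 at 23.6, DVL2 at 23.3, AXIN1 at 14.6, GSK3B at 10.9, BTRC at 6.98 and APC at 4.87 CPM per kb. In this order CTNNB1 and CSNK1A1 did not overlap over the libraries, and neither did GSK3B and BTRC, while all other neighbours overlapped. Each gene's highest library was 1.3 (DVL3) to 2.4 (APC) times its lowest, and 2.11 times for CTNNB1.

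CTNNB1, which encodes beta-catenin itself, lies on chromosome 3 (41194741 to 41260096, plus strand, GRCh38, identifier ENSG00000168036). It had 551 and 741 CPM after 6 h of WNT3A, 485 and 415 CPM after 18 h of WNT3A, 474 and 351 CPM after 6 h of CHIR99021 and 369 and 362 CPM after 18 h of CHIR99021, against 484 and 582 CPM in mTeSR1. Both CHIR99021 groups lay below both mTeSR1 libraries, and both WNT3A groups overlapped mTeSR1. By mean level the order was WNT3A 6 h, mTeSR1, WNT3A 18 h, CHIR99021 6 h and CHIR99021 18 h, and each group overlapped its neighbour in that order.

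The largest CTNNB1 difference from mTeSR1 was after 18 h of CHIR99021, where it averaged 366 ± 5.27 CPM against 533 ± 68.8 CPM in mTeSR1 (SD, n = 2 each). The log2 change was -0.55 (95% interval -1.03 to -0.07), with an unadjusted p of 0.029 and an FDR of 0.2 by edgeR's quasi-likelihood test. With mTeSR1 library 2 and WNT3A 6 h library 2 both left out, the same change was -0.07 (FDR = 0.86 by edgeR). That setting leaves 1 library, of repeat 1, in mTeSR1 and 1 in WNT3A 6 h, each assumed to vary like the other groups. CHIR99021 18 h, of repeat 2 only, then has no mTeSR1 library of its own repeat, and its change rests on the repeat term estimated from other groups. With an offset that removes the length trend and all libraries kept, the CTNNB1 change was -0.48 (FDR = 0.14). A fit of these 2 groups alone gave -0.67 (FDR = 0.024), the one setting in which a gene of the set passed. There the repeat term takes up mTeSR1 library 1, the only library of repeat 1, so the change is against mTeSR1 library 2 alone. In that setting 1241 of all genes passed, against 424 in the main fit. The changes were 0.28 after 6 h of WNT3A (FDR = 1), -0.24 after 18 h of WNT3A (FDR = 0.68) and -0.37 after 6 h of CHIR99021 (FDR = 0.95). Within the repeats, CTNNB1 changed by 0.19 in repeat 1 and 0.35 in repeat 2 after 6 h of WNT3A. The corresponding values were 0 and -0.49 after 18 h of WNT3A and -0.03 and -0.73 after 6 h of CHIR99021. Over repeat 2 alone the CHIR99021 18 h change was -0.67, the same contrast as in the fit of 2 groups. The lower values lay in repeat 2.

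APC, the tumour suppressor scaffold of the complex and its longest transcript here at 10701 bases, lies on chromosome 5 (112707498 to 112846239, plus strand, ENSG00000134982). APC had 37.6 and 90.2 CPM after 6 h of WNT3A, 39.7 and 40.4 CPM after 18 h of WNT3A, 44.3 and 43.7 CPM after 6 h of CHIR99021 and 54.4 and 40.3 CPM after 18 h of CHIR99021, against 47.1 and 83.2 CPM in mTeSR1. The highest values, 90.2 and 83.2 CPM, are those of the 2 libraries in which counts rose with length, and the other 8 libraries lay between 37.6 and 54.4 CPM. The log2 change was -0.03 after 6 h of WNT3A, -0.7 after 18 h of WNT3A, -0.56 after 6 h of CHIR99021 and -0.67 after 18 h of CHIR99021, with an FDR of 0.28 to 1 by edgeR. The 18 h WNT3A interval, -1.59 to 0.19, reached lowest of all intervals against mTeSR1. Without those 2 libraries, which leaves mTeSR1 with 1 library, of repeat 1, the changes were -0.33, -0.23 and -0.1 in the first 3 of these treatments. The CHIR99021 18 h value, which has no mTeSR1 library of its repeat there, was 0.01. With the length offset and all libraries kept, APC changed by -0.42 after 18 h of WNT3A and by -0.42 after 18 h of CHIR99021 (FDR = 0.2). In repeat 1 alone APC differed from mTeSR1 by -0.32 after 6 h of WNT3A, -0.24 after 18 h of WNT3A and -0.09 after 6 h of CHIR99021, and in repeat 2 by 0.12, -1.04 and -0.92.

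AXIN1, the constitutive scaffold that holds the kinases and beta-catenin together, lies on chromosome 16 (287440 to 352673, minus strand, ENSG00000103126). AXIN1 had 89 and 77.6 CPM after 6 h of WNT3A, 96.2 and 97.6 CPM after 18 h of WNT3A, 95.8 and 94.2 CPM after 6 h of CHIR99021 and 97.2 and 108 CPM after 18 h of CHIR99021, against 86.5 and 81.9 CPM in mTeSR1. It was the one gene of the set that lay above both mTeSR1 libraries in 3 of the 4 treatments, all but WNT3A 6 h, and the differences were small. The log2 change was 0.32 after 18 h of CHIR99021 (95% interval 0.04 to 0.59, unadjusted p = 0.029, FDR = 0.2 by edgeR). It was 0.2 after 18 h of WNT3A (FDR = 0.56), 0.17 after 6 h of CHIR99021 (FDR = 0.95) and -0.01 after 6 h of WNT3A (FDR = 1). With the 2 libraries left out, and 1 mTeSR1 library remaining, AXIN1 changed by 0.25 after 18 h of CHIR99021 (FDR = 0.49 by edgeR) and by 0.17 after 18 h of WNT3A (FDR = 0.69). Within repeats the change was 0.15 and 0.25 after 18 h of WNT3A and 0.15 and 0.2 after 6 h of CHIR99021.

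Its paralog moved on another scale. The log2 ratio of AXIN2 to AXIN1 was 0.12 to 1.49 in the 8 treated libraries, with a mean of 0.82, against -1.13 and -1.36 in the mTeSR1 libraries. The difference of the means was 2.07. It is a description that follows from the AXIN2 levels above, and this ratio is of counts, which are not scaled by length.

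**Figure D2:**
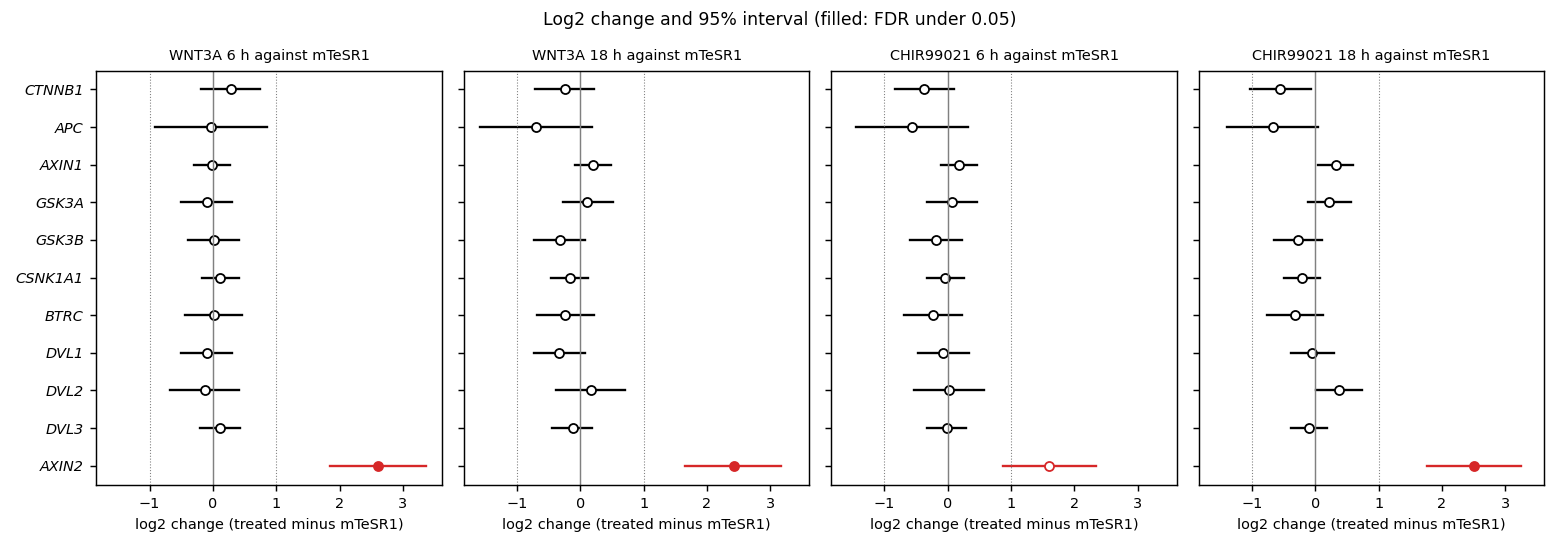
Log2 change against mTeSR1 (horizontal axis, treated minus mTeSR1) with its 95% interval from the edgeR fit, for the 10 genes (black) and AXIN2 (red) in the 4 treatments. Filled points have an FDR under 0.05, and dotted lines mark a 2-fold change. All 40 black points are open and lie between -0.7 and 0.38, while AXIN2 lies between 1.6 and 2.61 and is filled in 3 of the 4 panels.

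GSK3A and GSK3B encode the kinases that CHIR99021 inhibits and that mark beta-catenin for destruction. GSK3A (chromosome 19, 42230186 to 42242625, minus strand, ENSG00000105723) had 107 and 81.2 CPM after 6 h of WNT3A, 109 and 109 CPM after 18 h of WNT3A, 105 and 106 CPM after 6 h of CHIR99021 and 111 and 107 CPM after 18 h of CHIR99021, against 115 and 87 CPM in mTeSR1. Every treated group of GSK3A overlapped mTeSR1. GSK3B (chromosome 3, 119821323 to 120094417, minus strand, ENSG00000082701) had 81.2 and 105 CPM after 6 h of WNT3A, 75.9 and 72.3 CPM after 18 h of WNT3A, 84.6 and 78.1 CPM after 6 h of CHIR99021 and 85.4 and 75 CPM after 18 h of CHIR99021, against 80.4 and 105 CPM in mTeSR1. For GSK3B the WNT3A 18 h group alone lay below both mTeSR1 libraries. Its log2 change there was -0.32 (95% interval -0.73 to 0.08, FDR = 0.49 by edgeR). GSK3B changed by 0.01 after 6 h of WNT3A, -0.19 after 6 h of CHIR99021 and -0.27 after 18 h of CHIR99021, while GSK3A changed by -0.1, 0.06 and 0.22 there and by 0.11 after 18 h of WNT3A. The FDR of these values was 0.38 to 1.

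The balance of the 2 kinases stood apart in 2 libraries. GSK3A made up 64.4% and 62.9% of the summed GSK3 level per kb in mTeSR1 library 2 and WNT3A 6 h library 2, and 73.1% to 76.8% in the other 8 libraries. The GSK3A transcript is 3524 bases long and that of GSK3B 7711 bases.

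CSNK1A1, the kinase that primes beta-catenin for GSK3, lies on chromosome 5 (149492197 to 149551552, minus strand, ENSG00000113712). CSNK1A1 had 263 and 266 CPM after 6 h of WNT3A, 226 and 206 CPM after 18 h of WNT3A, 254 and 220 CPM after 6 h of CHIR99021 and 209 and 203 CPM after 18 h of CHIR99021, against 236 and 251 CPM in mTeSR1. The WNT3A 6 h libraries lay above both mTeSR1 libraries, both 18 h groups lay below them, and CHIR99021 6 h overlapped. The log2 changes were small, at 0.12, -0.17, -0.04 and -0.21 in that order of treatments (FDR = 0.36 to 1 by edgeR). After 6 h of CHIR99021 the 95% interval ran from -0.33 to 0.26. The near-identical copies CSNK1A1L, CSNK1A1P1 and CSNK1A1P3 were listed at 0 in all 10 libraries.

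BTRC, the adaptor that recognises phosphorylated beta-catenin, lies on chromosome 10 (101354033 to 101557321, plus strand, ENSG00000166167). BTRC had 44.8 and 51.7 CPM after 6 h of WNT3A, 48 and 33.2 CPM after 18 h of WNT3A, 45 and 36.4 CPM after 6 h of CHIR99021 and 38.6 and 34.8 CPM after 18 h of CHIR99021, against 45.9 and 49.9 CPM in mTeSR1. Both CHIR99021 groups lay below mTeSR1 and both WNT3A groups overlapped it. The log2 changes were 0.01, -0.24, -0.23 and -0.32 in that order, with an FDR of 0.38 to 1 by edgeR. After 18 h of CHIR99021 the 95% interval ran from -0.77 to 0.12.

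The Dishevelled genes encode the adaptors between the receptors and the complex. DVL1 (chromosome 1, 1335276 to 1349350, minus strand, ENSG00000107404) had 115 and 83.9 CPM after 6 h of WNT3A, 86 and 84 CPM after 18 h of WNT3A, 106 and 97.7 CPM after 6 h of CHIR99021 and 104 and 87.2 CPM after 18 h of CHIR99021, against 114 and 99.6 CPM in mTeSR1. The WNT3A 18 h group lay below both mTeSR1 libraries, with a log2 change of -0.33 (95% interval -0.73 to 0.07, FDR = 0.48 by edgeR), and the other groups overlapped. DVL2 (chromosome 17, 7225341 to 7234545, minus strand, ENSG00000004975) had 76.8 and 48 CPM after 6 h of WNT3A, 80.4 and 72.1 CPM after 18 h of WNT3A, 72.9 and 64.7 CPM after 6 h of CHIR99021 and 74.4 and 77.6 CPM after 18 h of CHIR99021, against 80.1 and 55.6 CPM in mTeSR1. Every treated group of DVL2 overlapped mTeSR1. DVL3 (chromosome 3, 184155311 to 184173614, plus strand, ENSG00000161202) had 124 and 151 CPM after 6 h of WNT3A, 116 and 117 CPM after 18 h of WNT3A, 121 and 129 CPM after 6 h of CHIR99021 and 129 and 118 CPM after 18 h of CHIR99021, against 122 and 132 CPM in mTeSR1. DVL3 lay below both mTeSR1 libraries after 18 h of WNT3A alone, by a log2 change of -0.12 (FDR = 0.76).

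DVL2 gave the only other unadjusted p under 0.05 against mTeSR1, with a log2 change of 0.38 after 18 h of CHIR99021 (95% interval 0.01 to 0.74, unadjusted p = 0.047 and FDR = 0.25 by edgeR's quasi-likelihood test with the repeat as a block). The means there were 76 ± 2.28 CPM after 18 h of CHIR99021 and 67.9 ± 17.3 CPM in mTeSR1 (SD, n = 2 each). The change of 0.38 is adjusted for the repeat, so it is not the ratio of these means and is larger than that ratio. Against the mTeSR1 library of repeat 2 alone, the DVL2 change was 0.45. With mTeSR1 library 2 and WNT3A 6 h library 2 left out it was 0.09, a value that again has no mTeSR1 library of repeat 2, and with the length offset it was 0.34 (FDR = 0.15 by edgeR). DVL2 was lowest in those 2 libraries, at 55.6 and 48 CPM. Over all libraries it was lower in repeat 2 by a log2 difference of -0.38 (FDR = 0.07). In shares of the summed Dishevelled level per kb, DVL1 held 35.4% to 42.3%, DVL2 22.7% to 35.6% and DVL3 27% to 40.4% over the libraries. The lowest DVL2 share and the highest DVL3 share were both in WNT3A 6 h library 2.

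Read as a set, the genes moved by amounts near those of all genes tested. The median size of the log2 change, without its sign, was 0.1, 0.22, 0.12 and 0.3 for the 10 genes in the order WNT3A 6 h, WNT3A 18 h, CHIR99021 6 h and CHIR99021 18 h, and 0.17, 0.24, 0.19 and 0.28 over all genes. With its sign, the median log2 change of the 10 genes was 0 after 6 h of WNT3A, against 0.01 over all genes tested. It was -0.2 after 18 h of WNT3A, against 0.02, and -0.05 after 6 h of CHIR99021, against 0.01. After 18 h of CHIR99021 it was -0.15, against 0.02. After 6 h of WNT3A 5 of the 10 changes lay above 0 and 5 below, against 7789 and 7454 of all genes. In each of the other treatments 3 lay above 0 and 7 below. Over all genes the counts there were 7971 and 7273 (WNT3A 18 h), 7800 and 7445 (CHIR99021 6 h) and 7867 and 7384 (CHIR99021 18 h). The counts of genes whose 2 libraries all lay above, or all below, both mTeSR1 libraries were 1 and 0 after 6 h of WNT3A, against 13.7% and 12% of all genes. They were 1 and 5 after 18 h of WNT3A, against 21.8% and 21.3%, and 1 and 3 after 6 h of CHIR99021, against 16.5% and 15.9%. After 18 h of CHIR99021 they were 1 and 3, against 24.2% and 22.7%.

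The 95% intervals give the range of changes that the fit allows. After 6 h of WNT3A the intervals of all 10 genes lay within a 2-fold change in either direction, and 7 lay within 1.5-fold. The counts within 2-fold were 9 after 18 h of WNT3A, 9 after 6 h of CHIR99021 and 8 after 18 h of CHIR99021, where those of APC and CTNNB1 reached lower. For the mean of the 4 treatments all 10 lay within 2-fold and 9 within 1.5-fold. In that average the log2 change was -0.22 for CTNNB1 (FDR = 0.54), -0.47 for APC (FDR = 0.37) and 0.17 for AXIN1 (FDR = 0.42), and the other 7 lay between -0.2 and 0.12.

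The treatments were also compared with each other, by agent and by time, and 0 of 10 genes passed in each of these 4 comparisons. With CHIR99021 against WNT3A at 6 h, 0.00656% of all genes passed, and CTNNB1 stood out at 413 ± 87.2 CPM after CHIR99021 and 646 ± 135 CPM after WNT3A (SD, n = 2 each). Its log2 change of -0.65 (95% interval -1.11 to -0.18, unadjusted p = 0.012) had an FDR of 0.69 by edgeR, and the CHIR99021 libraries lay below both WNT3A libraries. Without the 2 libraries with a length trend, which leaves WNT3A 6 h with 1 library, it was -0.41 (FDR = 0.9), and with the length offset it was -0.56 (FDR = 0.71). At the other end of the set in this comparison was AXIN1, at 0.19 (FDR = 0.71). With CHIR99021 against WNT3A at 18 h, 0% of all genes passed by edgeR's test, 4.12% had an unadjusted p under 0.05 with 0 of the 10 among them, and the set ran from -0.3 (CTNNB1) to 0.27 (DVL1).

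By time, 0.144% of all genes passed for 18 h against 6 h of WNT3A. APC had the lowest change, -0.67 (FDR = 0.46), and DVL2 the highest, 0.29 (FDR = 0.58). CTNNB1 was at -0.52 there, with means of 450 ± 49.4 CPM at 18 h and 646 ± 135 CPM at 6 h (SD, n = 2 each, unadjusted p = 0.032, FDR = 0.35 by edgeR). For 18 h against 6 h of CHIR99021, 0.00656% of all genes passed, and the set ran from -0.18 (CTNNB1 and APC) to 0.33 (DVL2, FDR = 0.77). The difference between the agents was itself tested between 18 h and 6 h, and no gene of the set passed, with FDR values of 0.93 to 1. At unadjusted p under 0.05 the 4 comparisons of this kind held 1, 0, 1 and 0 of the 10 genes, against 6.53%, 4.12%, 13.2% and 6.85% of all genes. DESeq2 called 0 of the 10 in each.

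The deviations of the set were also read in the 2 libraries in which counts rose with transcript length. APC stood 0.74 above its mean over the libraries on the log2 scale in mTeSR1 library 2 and 0.86 above it in WNT3A 6 h library 2, and between -0.4 and 0.13 in the other 8. After the trend of each library with length was taken out, the same deviations were 0.48 and 0.39. GSK3B stood 0.33 above its mean in both, and at 0.15 and 0.01 after the trend was taken out. DVL2, the shortest of the set at 3018 bases, stood at -0.32 and -0.53, and then at -0.25 and -0.46. CTNNB1 stood at 0.31 in mTeSR1 library 2 and 0.66 in WNT3A 6 h library 2, and at 0.25 and 0.55 after the trend was taken out. AXIN1 stood at -0.17 and -0.24, and farther from 0, at -0.29 and -0.47, after the trend was taken out. In the same 2 libraries GSK3A stood at -0.25 and -0.34 and BTRC at 0.23 and 0.29. The deviations were smaller for CSNK1A1, at 0.11 and 0.2, for DVL3, at 0.07 and 0.27, and for DVL1, at 0.04 and -0.21. After the trend was taken out, GSK3A stood at -0.22 and -0.33, BTRC at 0.12 and 0.08 and CSNK1A1 at -0.01 and 0. DVL3 then stood at -0.01 and 0.12 and DVL1 at 0.08 and -0.17. With the length offset AXIN1 changed by 0.44 after 18 h of CHIR99021 (FDR = 0.11 by edgeR).

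**Figure D3:**
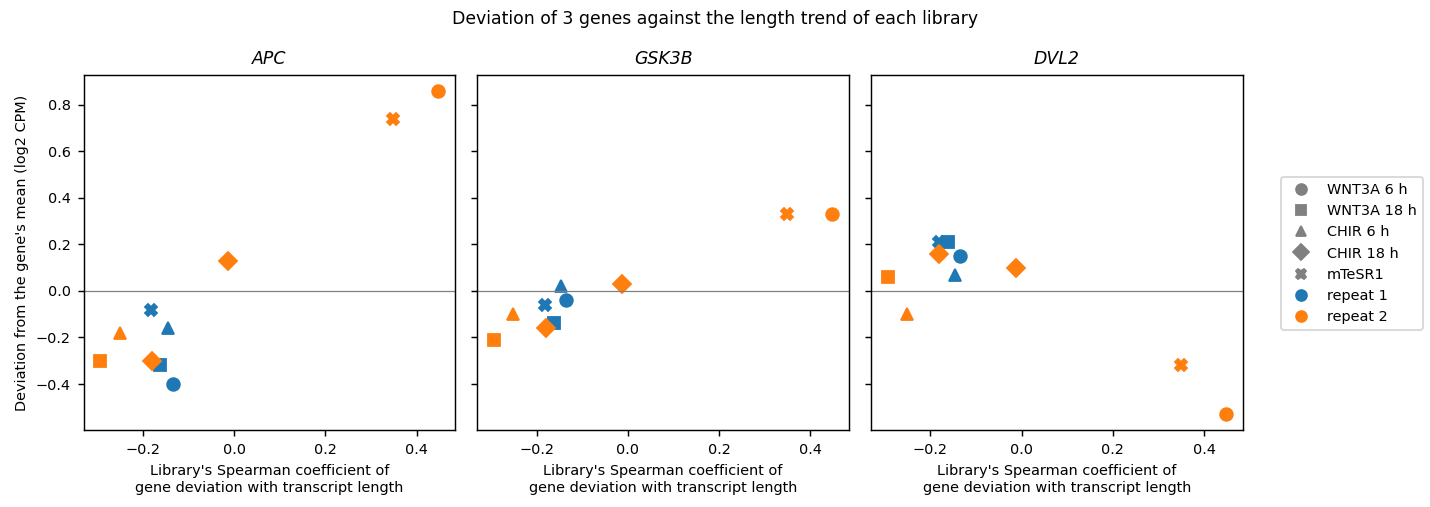
Deviation of APC, GSK3B and DVL2 from their mean over the 10 libraries (vertical axis, log2 CPM) against the Spearman coefficient of each library between gene deviation and transcript length (horizontal axis). Symbols give the treatment and colours the biological repeat. The libraries at 0.349 and 0.448 on the horizontal axis, mTeSR1 and WNT3A 6 h of repeat 2, hold the 2 highest values of APC and GSK3B and the 2 lowest of DVL2.

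Among 25 other genes of the destruction complex and of beta-catenin turnover, all tested, the same 3 rose after 6 h of WNT3A, 18 h of WNT3A and 18 h of CHIR99021, and none fell. They were AXIN2, NKD1 and DACT1, all known as inhibitors or modulators of WNT signalling that act on AXIN or Dishevelled. None of the 25 passed after 6 h of CHIR99021 by edgeR's test, where an unadjusted p under 0.05 was reached by 3 of them, and DESeq2 called AXIN2 and DACT1. DACT1 also passed there with the replicate block, at 2.96 (FDR = 0.0071 by edgeR), and with the length offset plus that block (FDR = 0.01), and AXIN2 passed in a fit of only the groups compared (FDR = 0.037). AXIN2 had log2 changes of 2.61 (FDR = 0.015) after 6 h of WNT3A, 2.42 (FDR = 0.011) after 18 h of WNT3A, 1.6 (FDR = 0.34) after 6 h of CHIR99021 and 2.51 (FDR = 0.0084) after 18 h of CHIR99021. In fits of only the groups compared, AXIN2 failed after 6 h of WNT3A (FDR = 0.097 by edgeR) and after 18 h of CHIR99021 (FDR = 0.2). After 18 h of WNT3A it passed there (FDR = 0.0021). The AXIN2 call was lost with either mTeSR1 library left out, at FDR values of 0.059 to 0.14 without library 1 and 0.084 to 0.21 without library 2 in the 3 treatments that passed. It was also lost without WNT3A 18 h library 1 (FDR = 0.066 at 18 h of WNT3A), and the log2 change stayed between 1.46 and 2.94 under all alternatives.

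DACT1 had 178 and 216 CPM after 6 h of WNT3A, 93.9 and 143 CPM after 18 h of WNT3A, 98 and 161 CPM after 6 h of CHIR99021 and 169 and 110 CPM after 18 h of CHIR99021, against 9.62 and 25.4 CPM in mTeSR1. NKD1 had 256 and 259 CPM, 176 and 93.4 CPM, 48.2 and 41.8 CPM and 49.6 and 190 CPM in the same treatments, against 11.8 and 16.3 CPM in mTeSR1. Every treated library of both genes lay above both mTeSR1 libraries. After WNT3A the calls of DACT1 likewise depended on single libraries, with an FDR between 0.056 and 0.14 by edgeR in the settings that left out mTeSR1 library 1, WNT3A 6 h library 1 or 2, or WNT3A 18 h library 1 or 2. After 18 h of CHIR99021 DACT1 passed in 12 of 13 alternatives, all but the one with both length-trend libraries left out. NKD1 passed in 5 of 14 alternatives after 6 h of WNT3A, 7 of 14 after 18 h of WNT3A and 5 of 13 after 18 h of CHIR99021. With mTeSR1 library 2 and WNT3A 6 h library 2 both left out, none of AXIN2, DACT1 and NKD1 passed by edgeR in the 4 treatments (FDR = 0.056 to 0.98). Their log2 changes there, after 6 h of WNT3A, 18 h of WNT3A and 18 h of CHIR99021, were 2.66, 2.27 and 2.35 for AXIN2, 4.2, 3.62 and 3.2 for DACT1 and 4.44, 3.52 and 3.93 for NKD1. The median log2 change of the 25 genes was 0.01, 0.06, -0.02 and 0.05 in the 4 treatments in the same order.

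Setting each gene of the complex beside its paralogs over the mean of the 4 treatments, AXIN2 and APC2 passed the test and the rest did not. APC2, a shorter relative of APC expressed at a low level, averaged 5.04 CPM over the treatments and 10.4 CPM in mTeSR1, with a log2 change of -1.13 (95% interval -1.58 to -0.68, FDR = 0.023 by edgeR). Its libraries overlapped, since mTeSR1 had 15.8 CPM in repeat 1 and 4.93 CPM in repeat 2. The call was lost without the repeat as a block (FDR = 0.57), without mTeSR1 library 1 (FDR = 0.12) and without mTeSR1 library 2 (FDR = 0.51). FBXW11, the second beta-TrCP gene, changed by -0.02 (FDR = 0.95), and JUP, which encodes the beta-catenin relative plakoglobin, by -0.19 (FDR = 0.35). The other casein kinase 1 genes ran from -0.16 (CSNK1E and CSNK1G1) to 0.16 (CSNK1D).

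**Figure D4:**
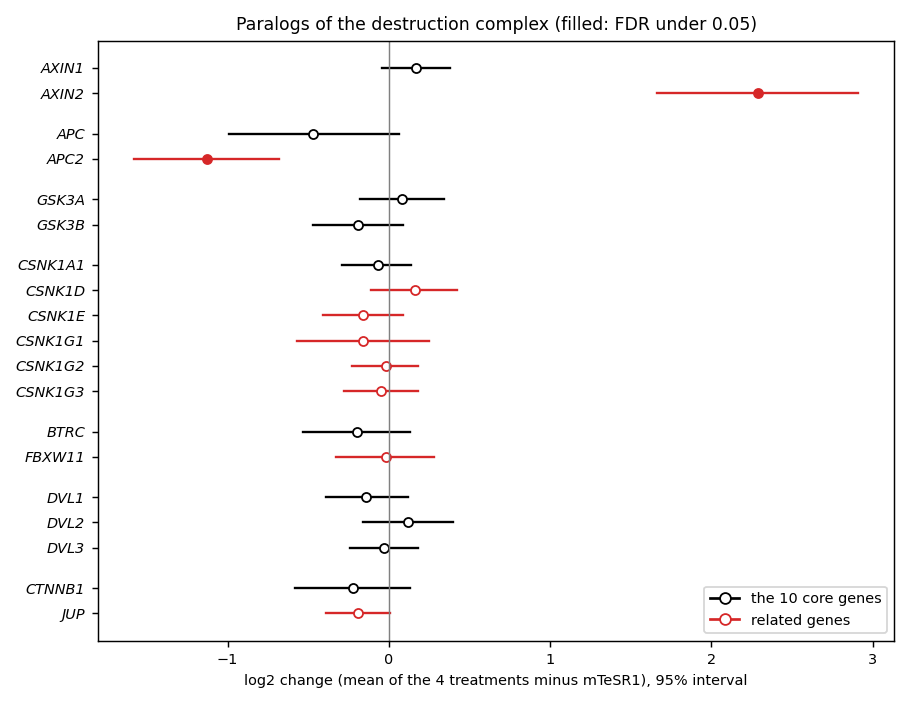
Log2 change over the mean of the 4 treatments against mTeSR1 (horizontal axis) with its 95% interval, for the 10 genes (black) and their paralogs (red), grouped by family. Filled points have an FDR under 0.05. AXIN2 at 2.29 and APC2 at -1.13 are filled, and every black point lies between -0.47 and 0.17.

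Among 16 junction and nuclear partners of beta-catenin, TCF7, a TCF factor, rose after 6 h of WNT3A with a log2 change of 2.01 (FDR = 0.018), after 18 h of WNT3A with 1.74 (FDR = 0.016) and after 18 h of CHIR99021 with 1.85 (FDR = 0.015). TCF7L1, a TCF factor known mainly as a repressor in pluripotent cells, fell after 18 h of WNT3A by 1.69 (FDR = 0.024) and after 18 h of CHIR99021 by 1.29 (FDR = 0.041). LEF1 passed after 18 h of CHIR99021 alone, at 5.31 and 56.3 CPM against 1.05 and 0.113 CPM in mTeSR1 (FDR = 0.041 by edgeR). It also lay above both mTeSR1 libraries after WNT3A, at 30.5 and 13.4 CPM (6 h) and 50.1 and 22.7 CPM (18 h). After 6 h of CHIR99021 LEF1 had 5.52 and 2.05 CPM. Those fits held no term for the repeat. BCL9L, a coactivator of beta-catenin, fell after 18 h of CHIR99021 by 0.71 (FDR = 0.047 by edgeR). After 18 h of WNT3A BCL9L changed by -0.84 to -0.4 over the alternatives and passed in 2 of 14. Each of these calls of TCF7, TCF7L1, LEF1 and BCL9L was lost with mTeSR1 library 1 left out (FDR = 0.071 to 0.21 by edgeR) and with mTeSR1 library 2 left out (FDR = 0.087 to 0.61), with no change of sign. After 6 h of CHIR99021 none of the 16 passed by edgeR, with 2 at an unadjusted p under 0.05. The median log2 change of the 16 was 0.1, 0.04, -0.14 and -0.23 in the 4 treatments.

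Of 12 tested genes in a list of 13 WNT targets, 6 rose after 6 h of WNT3A, 7 after 18 h of WNT3A, 1 after 6 h of CHIR99021 and 8 after 18 h of CHIR99021, and none fell. Of these fits only that for 18 h of CHIR99021 held the repeat term, so the counts are not on one footing. AXIN2, NKD1, SP5, TCF7 and CCND1, the gene of cyclin D1, rose in each of the 3 treatments with more than 1 call, with CCND1 at 792 CPM after 6 h of WNT3A, 475 CPM after 18 h of WNT3A and 470 CPM after 18 h of CHIR99021, against 184 CPM in mTeSR1. TNFRSF19 also rose after 6 h of WNT3A, and RNF43, which encodes a ligase that removes WNT receptors, and the WNT inhibitor APCDD1 rose in both 18 h groups. RNF43 had 21.3 and 23 CPM after 18 h of WNT3A and 10.8 and 31 CPM after 18 h of CHIR99021, against 0.68 and 2.16 CPM in mTeSR1, and passed in 9 of 14 and 7 of 13 alternatives there. APCDD1 had 89.4 and 42.6 CPM after 18 h of WNT3A and 16 and 57.6 CPM after 18 h of CHIR99021, against 6.01 and 3.23 CPM in mTeSR1, and passed in 7 of 14 and 6 of 13. LEF1 completes the 8 after 18 h of CHIR99021. The 1 after 6 h of CHIR99021 was SP5, at 61 and 57.4 CPM against 0.366 and 0 CPM in mTeSR1, and that call was lost with any library of either group left out (FDR = 0.14 to 0.3). The median of the list was 3.02, 2.99, 0.97 and 3.34 on the log2 scale, beside 0, -0.2, -0.05 and -0.15 for the 10 genes of the machinery. AXIN2, NKD1, LEF1 and TCF7 stand in more than one of these lists.

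The genes whose pattern over the 10 libraries lay nearest to that of CTNNB1, by the root mean square difference of centred log2 CPM among 9870 genes with a mean of at least 10 CPM, were DTX4 at 0.0728, RNF157 at 0.0765 and PPP1CB at 0.0822. PPP1CB, a catalytic subunit of protein phosphatase 1, averaged 249 CPM after 6 h of WNT3A, 163 CPM after 18 h of WNT3A, 173 CPM after 6 h of CHIR99021 and 141 CPM after 18 h of CHIR99021, against 207 CPM in mTeSR1. Of the other genes of the complex BTRC came nearest, at rank 196 with a difference of 0.178, followed by CSNK1A1 at rank 584 and GSK3B at rank 805. DVL2 was farthest, at rank 7811. All these distances rest on the same 10 libraries, 2 of which carry the length trend described above.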

How the data were processed

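Poly-A selected RNA of 10 ESI017 libraries in 5 groups of 2 was sequenced in paired-end mode, per the labels' protocols. The authors deposited estimated counts per gene, with Salmon 1.8.0 and GRCh38 listed in the submitters' processing notes. The transcript set and strand setting, not given in the sources used here, could shift reads between overlapping genes. Estimated counts were summed per symbol (37951 identifiers, 35940 symbols) and rounded. All 10 libraries entered 1 fit in edgeR 4.0.16 (R 4.3.3; TMM scaling, minimum count 10, minimum total 15, robust quasi-likelihood test), and p-values were Benjamini-Hochberg adjusted over 15251 genes, with a threshold of 0.05. Comparisons with CHIR99021 at 18 h, or with the mean of the 4 treatments, were fitted with a term for the biological repeat, because CHIR99021 18 h is titled as repeat 2 only. Coordinates and transcript lengths come from GENCODE on GRCh38 (lengths for 99.3% of genes tested), and promoter windows from RefSeq on GRCh38.p14. Levels per kb use the longest transcript, which may not be the one expressed.

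Libraries are paired by biological repeat, which the design text states. Deviations from the group means of same-numbered libraries correlated at 0.261 to 0.595 (Pearson) over 6 pairs of groups, none with CHIR99021 18 h. Between repeats 354 genes were higher and 555 lower in repeat 2. At the depths reached, 3 counts stood at 0.112 to 0.18 CPM.

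The genes, the lists and the tests were chosen with earlier results of these data known. Named genes were all 10 of the set against mTeSR1, the extremes of the set in other comparisons, and from each other list those that passed, with up to 3 of the largest changes. Alternatives were DESeq2 1.42.0, other scalings, no filter, single identifiers, the replicate block added or removed, a length offset, only the groups compared, and each library left out. Leaving out both libraries with a length trend, which leaves 1 library in mTeSR1 and in WNT3A 6 h, was added after seeing the data. Scripts were tested on simulated data.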

Additional observations from a re-analysis of the deposited data

Results flagged for a closer look

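For 3 genes both repeats moved one way after 6 h of WNT3A and the other way after 18 h of WNT3A, each against the mTeSR1 library of its own repeat. The same pattern was met by 1806 of 15251 genes tested (11.8%). The values given first are means of the within-repeat differences in log2 CPM, not the edgeR changes used above. For CSNK1A1 this mean was 0.12 at 6 h and -0.17 at 18 h. DVL2 had -0.14 at 6 h and 0.19 at 18 h, where its change was 0.01 in repeat 1 and 0.37 in repeat 2. DVL3 had 0.11 at 6 h and -0.12 at 18 h. Both time points share the mTeSR1 libraries. The direct comparison of 18 h with 6 h of WNT3A gave log2 changes of -0.29 for CSNK1A1 (FDR = 0.38), 0.29 for DVL2 (FDR = 0.58) and -0.24 for DVL3 (FDR = 0.45) by edgeR's quasi-likelihood test, so none passed. All 3 genes at 6 h include WNT3A 6 h library 2, where counts rose with transcript length and the trend at the length of each gene was 0.2 (CSNK1A1), -0.07 (DVL2) and 0.14 (DVL3) on the log2 scale. Both time points also include mTeSR1 library 2, where it was 0.11, -0.07 and 0.08.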

How the results depend on the processing

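The count of genes of the set that passed stayed at 0 in 126 of 127 alternative settings over the 9 comparisons. The exception was the fit with only the groups compared, where 1 gene passed after 18 h of CHIR99021 against mTeSR1, CTNNB1 at -0.67 (FDR = 0.024 by edgeR). That setting called 1241 of all genes, the most of any setting for this comparison, against 424 in the main fit. With the repeat term it sets CHIR99021 18 h against mTeSR1 library 2 alone. Of 1270 alternative log2 changes of the 10 genes, 1269 stayed on their side of the threshold, and 124 uncalled values changed sign. With the replicate block the number of genes of the set that passed was 0, as without it, while the count over all genes was 168, against 66 without it, after 6 h of WNT3A, 751 against 320 after 18 h of WNT3A and 21 against 3 after 6 h of CHIR99021. With no replicate block it was 181, against 424 with it, after 18 h of CHIR99021. DESeq2 called 249, 810, 65 and 918 genes in the 4 treatments. Over the alternatives the counts over all genes ran from 2 to 275, 53 to 1142, 1 to 65 and 10 to 1241. With each library left out in turn, 0 genes of the set passed. The length offset moved APC after 18 h of WNT3A to -0.42 and after 18 h of CHIR99021 to -0.42. The 95% interval of APC reached -1.59 after 18 h of WNT3A, a fold of 0.333.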
